A study of Mus musculus with 40 samples.

Results

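The dual-specificity MAP kinase phosphatases are the enzymes that remove phosphate from the activation loop of MAP kinases. The 10 genes described here, Dusp1, Dusp2, Dusp4, Dusp5, Dusp6, Dusp7, Dusp8, Dusp9, Dusp10 and Dusp16, were chosen by gene symbol and make up 10 of the 24062 genes in the count table. RNA-Seq was performed on primary mouse embryonic fibroblasts (MEFs) of passage 3, isolated at 13.5 days post coitum from Sall2 WT, heterozygous (Het) and KO embryos. Sall2 encodes a zinc finger transcription factor. All embryos had a mixed C57BL/6J-129P2OlaHsd background, and the cells were left untreated (control) or were given 1 μM doxorubicin for 16 h. Doxorubicin is a topoisomerase II poison that breaks DNA. The control libraries came from 1 WT, 1 Het and 3 KO embryos. The doxorubicin libraries came from 1 WT, 1 Het and 2 KO embryos, because the third KO library held the same count as the second in each of the 24062 genes and was counted once. WT and Het were thus represented by a single embryo each, and the targeted allele is a constitutive KO with a segment of the 129P2 genome around it.

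MAP kinases are activated by phosphorylation of a threonine and a tyrosine, and these phosphatases remove both phosphates, which ends the signal. The family is usually divided into 3 groups. Dusp1, Dusp2, Dusp4 and Dusp5 encode inducible nuclear enzymes, which are early response genes in many cells. Dusp6, Dusp7 and Dusp9 encode cytoplasmic enzymes that prefer ERK, and Dusp8, Dusp10 and Dusp16 encode enzymes that prefer the stress-activated kinases JNK and p38. In fibroblasts, several members are transcribed in response to the same kinases that they inactivate, and so act as feedback inhibitors.

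The catalytic site is shared by all 10 members and is shown here. A stretch of 8 codons around the codon of the catalytic cysteine was read from the coding sequence of each gene in GENCODE M21 on GRCm38, the assembly of mm10. It is written 5′ to 3′ on the coding strand, with the cysteine codon in capitals.
Dusp1, chr17:26506592-26506615, minus strand, exon 4 of 4: catTGCcaggccggcatctcccgg
Dusp2, chr2:127337616-127337639, plus strand, exon 4 of 4: cacTGCcaagctggcatctctcgc
Dusp4, chr8:34818433-34818456, plus strand, exon 4 of 4: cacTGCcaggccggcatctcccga
Dusp5, chr19:53540951-53540974, plus strand, exon 4 of 4: cacTGCgaagctggggtttcccgg
Dusp6, chr10:99266027-99266050, plus strand, exon 3 of 3: catTGCttggcaggtatcagccgc
Dusp7, chr9:106373674-106373697, plus strand, exon 3 of 3: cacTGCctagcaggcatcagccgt
Dusp9, chrX:73642119-73642142, plus strand, exon 4 of 4: cacTGTctggcaggggtcagccgc
Dusp8, chr7:142083333-142083356, minus strand, exon 6 of 7: cacTGTctggctggcatctctcgc
Dusp10, chr1:184074293-184074316, plus strand, exon 4 of 4: cacTGCcaggccggcgtgtcccga
Dusp16, chr6:134720559-134720582, minus strand, exon 6 of 7: cacTGCttagctgggatctctcgc
The cysteine codon was TGC in 8 members and TGT in the remaining 2, Dusp8 and Dusp9. The stretch lay in the last exon of 8 members and in the exon before the last in Dusp8 and Dusp16. Of its 24 bases, Dusp4 shared 22 with Dusp1, Dusp10 shared 20 and Dusp2 shared 19, whereas Dusp9 shared 15. The members lie on 10 different chromosomes.

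The promoters of 3 members are also shown, because Dusp8 and Dusp2 rose with doxorubicin and Dusp1, which holds the same motif as Dusp8, did not. RefSeq promoters (GRCm38.p6), from 250 bases before to 50 bases after the start, were matched for 8 of the 10 members, all but Dusp4 and Dusp9. The whole windows of Dusp8 and Dusp16 lie inside their RefSeq genes (chr7:142079487-142095907 and chr6:134715468-134807063). They thus belong to a start inside the gene and not to its outermost start. Capitals mark TGACG on either strand, the core of the site of the CREB and ATF factors, and the full palindrome is TGACGTCA.
Dusp8, chr7:142095235-142095534, minus strand: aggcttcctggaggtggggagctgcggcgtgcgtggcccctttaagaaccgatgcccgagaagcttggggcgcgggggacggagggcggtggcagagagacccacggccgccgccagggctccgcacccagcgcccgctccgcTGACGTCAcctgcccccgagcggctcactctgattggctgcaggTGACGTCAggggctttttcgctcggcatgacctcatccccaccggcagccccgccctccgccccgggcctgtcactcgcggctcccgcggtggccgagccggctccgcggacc
Dusp1, chr17:26508423-26508722, minus strand: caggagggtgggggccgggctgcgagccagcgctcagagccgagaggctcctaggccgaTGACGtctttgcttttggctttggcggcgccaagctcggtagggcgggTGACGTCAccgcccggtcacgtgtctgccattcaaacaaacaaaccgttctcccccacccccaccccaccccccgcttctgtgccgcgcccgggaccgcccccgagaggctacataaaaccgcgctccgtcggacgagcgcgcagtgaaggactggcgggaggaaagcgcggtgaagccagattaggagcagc
Dusp2, chr2:127335909-127336208, plus strand: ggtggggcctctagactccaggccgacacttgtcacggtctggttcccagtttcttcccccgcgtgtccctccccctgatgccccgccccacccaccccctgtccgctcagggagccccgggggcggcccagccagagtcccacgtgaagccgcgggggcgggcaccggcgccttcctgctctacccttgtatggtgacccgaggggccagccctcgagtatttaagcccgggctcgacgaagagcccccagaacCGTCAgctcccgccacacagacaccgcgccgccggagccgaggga
The palindrome was found 2 times in Dusp8 and 1 time in Dusp1, and in none of the other 6 promoters. In all, 1.79% of the 32851 promoters in the same table held it. The core TGACG alone was found in Dusp1, Dusp2, Dusp5, Dusp8 and Dusp16, against 20.8% of all promoters. The Dusp5 promoter held 2 CArG boxes, the site of serum response factor, which were present in 1.63% of all promoters. None of the 8 promoters held the letters of the p53 half-site, which 8.36% of all promoters held. Dusp1 and Dusp2 each held CACGTG, the E-box, which was present in 7.15% of all promoters. These promoters had a GC content between 57.3% (Dusp6) and 78.7% (Dusp7), against a median of 52.7% over all promoters. A match of letters is a description and not a measured binding site.

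Before the comparisons, the libraries were checked. Their total counts lay between 15560728 and 24122414. The values below are CPM, counts relative to the size of the library as scaled by the TMM method, and 16656 genes, including all 10 members, passed the filter on low counts. Collagens, Fn1 and the other fibroblast markers, 10 of 10 of which were detected, summed to between 16500 and 96100 CPM in control and between 22400 and 59700 CPM with doxorubicin. The untreated cultures of the Het embryo and of KO embryo 3 stood apart. Their interferon-stimulated genes summed to 2016 and 2246 CPM, against 19.6 to 34.1 CPM in the other 3 control libraries, and their fibroblast markers to 20350 and 16500 CPM, against at least 78880 CPM. The 11 macrophage markers summed to 751 and 524 CPM in these libraries, against 135 to 241 CPM in the other control libraries, and to 842 CPM in Het with doxorubicin, against 112 to 173 CPM. Not all of these markers were higher in the untreated Het and KO embryo 3 libraries. Lyz2 held 8201 and 6419 counts there, against 1912 in untreated WT, but C1qa held 299 and 132, against 476. In KO embryo 3, Csf1r and C1qc also lay below untreated WT. The markers also moved with the treatment. The 6 endothelial markers summed to 46.8 CPM in control and 92.2 CPM with doxorubicin in WT, and likewise to 17.6 and 39.2 CPM (Het), 18.5 and 40.7 CPM (KO embryo 1), and 19.6 and 37.1 CPM (KO embryo 2). The interferon-stimulated genes went from 19.6 to 255 CPM in WT, from 34.1 to 303 CPM in KO embryo 1 and from 22.5 to 322 CPM in KO embryo 2, but from 2016 to 1372 CPM in Het. The part of these lists in the responses of the phosphatases was not tested. Without treatment, Sall2 itself had 37.7 CPM in the WT library, 24 CPM in the Het library and 19 to 24.3 CPM in the KO libraries, so reads of this gene remained in KO, and the log2 ratio of KO to WT was -1.0 (standard error, SE, 0.224, edgeR FDR 1). With doxorubicin Sall2 fell by 2.12 on the log2 scale (edgeR FDR 6.45e-05). The p53 targets Cdkn1a and Mdm2 were taken as checks of the treatment, and neither was called higher. Their log2 fold changes were -0.67 (edgeR FDR 0.0171) and -0.25 (edgeR FDR 0.518). Without treatment, Mdm2 had 513 and 509 CPM in Het and KO embryo 3, against 203 to 251 CPM in the other control libraries.

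The first question was how the phosphatases responded to doxorubicin. Dusp2, Dusp9 and Dusp8 rose, by 31-fold, 11.7-fold and 2.86-fold. None of the 10 members fell at an FDR under 0.01, although Dusp6 and Dusp1 had lower means in doxorubicin. Treatment was tested over the 9 libraries with genotype in the fit, with edgeR (quasi-likelihood, two-sided), and p-values were adjusted over all genes by the Benjamini-Hochberg method. Of all 16656 genes, 21.8% were called higher and 18.7% were called lower, so 3 higher and 0 lower among 10 members is to be read against a response of much of the transcriptome. The members' median log2 fold change was 0.14, and that of all genes tested was 0.02. In every library of a bulk culture, fewer cells of a type and less RNA per cell cannot be told apart. Nothing in the labels says whether the treated and untreated cultures of an embryo were grown separately, so the p-values measure the spread between these libraries. The plot of CPM by library shows each value, and the plot of fold changes shows the effect in 3 fits.

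**Figure D1:**
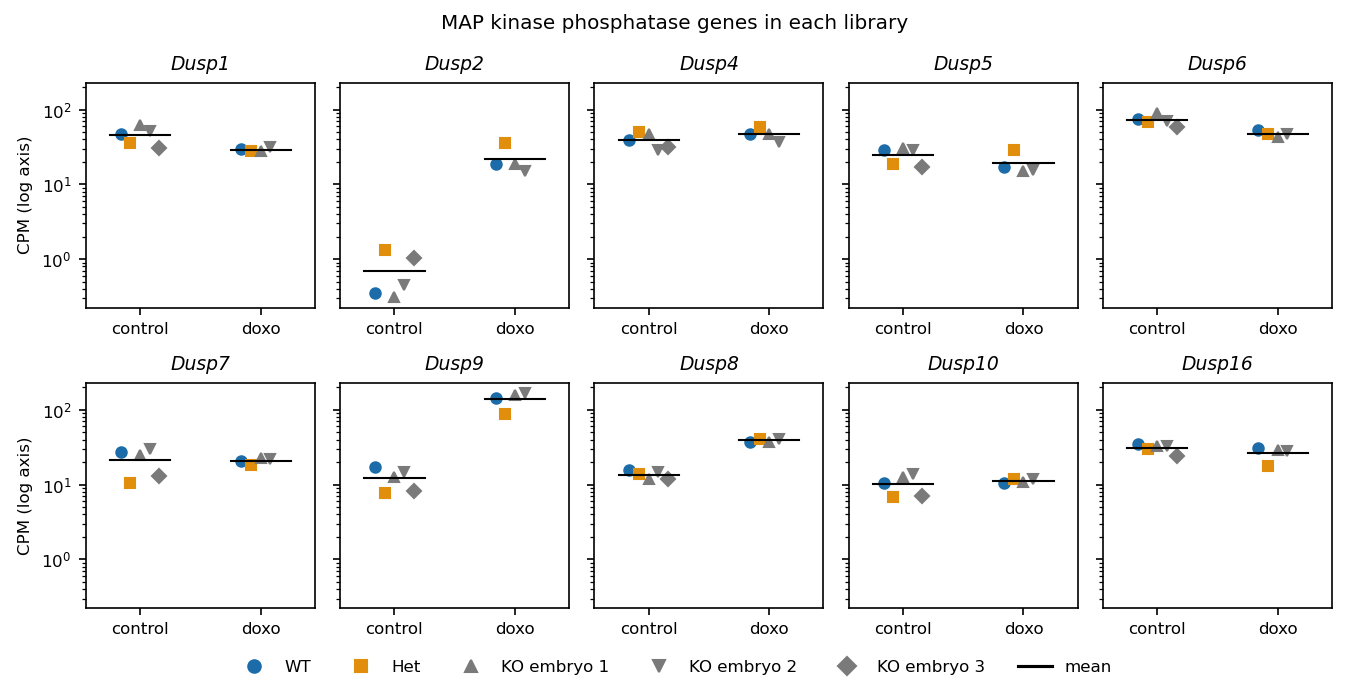
Each panel plots the CPM of a member on a log axis in the 5 control and the 4 doxorubicin (doxo) libraries, with symbols for the embryos and a line at the mean. The doxorubicin libraries sit above all control libraries for Dusp2 (15.1 to 35.5 against 0.308 to 1.31 CPM), Dusp9 (87.3 to 168 against 7.78 to 17.1 CPM) and Dusp8 (37.3 to 40.6 against 11.9 to 15.6 CPM), and below them for Dusp6 (42.4 to 53.9 against 58.1 to 89.1 CPM). The separation of Dusp6 rests on the TMM scaling.

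Among the inducible nuclear enzymes, Dusp2, also known as PAC-1 and best known from activated lymphoid cells, was nearly silent in control. In control, the WT and Het libraries held 7 and 32 counts and those of KO embryos 1, 2 and 3 held 6, 8 and 23. With doxorubicin, WT and Het held 374 and 732 counts and KO embryos 1 and 2 held 334 and 328. As CPM this was 0.349, 1.31, 0.308, 0.449 and 1.03 in control and 18.6, 35.5, 18.6 and 15.1 with doxorubicin, in the same order of embryos. The groups did not overlap, and Het was the highest library in both treatments. Its log2 fold change was 4.95 (SE 0.359, edgeR FDR 2.05e-05), and the difference within an embryo lay between 4.66 (Het) and 5.53 (KO embryo 1), higher in 4 of 4 embryos. Here and below, differences within an embryo take the identical library as KO embryo 2, although it may be that of KO embryo 3. The control libraries with the most Dusp2, Het and KO embryo 3, were those with 751 and 524 CPM of macrophage markers. They also had 2016 and 2246 CPM of interferon-stimulated genes and the lowest fibroblast sums. The part of these differences in the level of Dusp2 was not tested. Without the Het embryo and KO embryo 3, the log2 fold change of Dusp2 was 5.54 (edgeR FDR 1.67e-09).

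Dusp1, also known as MKP-1, the phosphatase first described as an early response gene of fibroblasts, had lower values with doxorubicin. In control, WT and Het had 46.6 and 35.3 CPM and the KO embryos had 62.9, 51.1 and 31.0 CPM. With doxorubicin, WT and Het had 29.9 and 27.9 CPM and the KO embryos had 27.8 and 31.3 CPM. The groups overlapped at the control library of KO embryo 3. On the TMM scale, the doxorubicin libraries lay close together, at 29.2 ± 1.67 CPM (SD, n = 4), whereas the control libraries spread over 45.4 ± 12.7 CPM (SD, n = 5). These spreads of Dusp1 rest on that scaling. At -0.61 (SE 0.214), its log2 fold change did not pass the threshold (edgeR FDR 0.0378), although the difference was negative in 4 of 4 embryos with the identical library as KO embryo 2. Dusp1 passed it with the embryo as a block, at -0.72 (edgeR FDR 0.00248), when the identical library was taken as KO embryo 2. It did not when that library was taken as KO embryo 3, at -0.53 (edgeR FDR 0.0629). Without KO embryo 3 in control, the value was -0.72 (edgeR FDR 0.00101). This fit is not separate from the block with the identical library as KO embryo 2, where that control library has no partner. Taken as KO embryo 3, the identical library had 31.3 CPM against 31.0 CPM in control, a difference that was not negative.

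Dusp4, a nuclear phosphatase of ERK and JNK, had 38.7, 50.9, 46.5, 29.0 and 31.4 CPM in control and 46.9, 59.3, 46.9 and 36.5 CPM with doxorubicin, with WT and Het first and the KO embryos after them. The groups overlapped widely, and the log2 fold change was 0.24 (SE 0.176, edgeR FDR 0.283). Dusp5, a nuclear phosphatase specific to ERK, had 28.6, 18.7, 31.0, 28.7 and 16.9 CPM in control and 17.3, 28.8, 15.0 and 15.4 CPM with doxorubicin. Its embryos did not share a direction. WT and KO embryos 1 and 2 differed by -0.72, -1.04 and -0.89 and Het by 0.62, and the log2 fold change over all libraries was -0.43 (SE 0.284, edgeR FDR 0.225). Without the Het embryo and KO embryo 3, it was -0.89 (edgeR FDR 2.32e-05), which passed the threshold.

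Among the cytoplasmic enzymes that prefer ERK, Dusp9, also known as MKP-4 and known from placenta, where it is needed for development, showed the change with the smallest FDR of the 10. In control, WT and Het held 344 and 190 counts and the KO embryos held 243, 265 and 185. With doxorubicin, WT and Het held 2865 and 1802 counts and the KO embryos held 2818 and 3669. As CPM this was 17.1, 7.78, 12.5, 14.9 and 8.30 in control and 143, 87.3, 157 and 168 with doxorubicin. Every doxorubicin library was above every control library, and the Het library was the lowest in both treatments. On the log2 scale it rose by 3.55 (SE 0.216, edgeR FDR 1.05e-05). The difference was close in all 4 embryos, at 3.05 (WT), 3.47 (Het), 3.64 (KO embryo 1) and 3.49 (KO embryo 2). The gene lies on the X chromosome (chrX:73639389-73643514, RefSeq on GRCm38.p6).

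Dusp6, also known as MKP-3, a feedback inhibitor of ERK in growth factor signalling, had the most CPM of the members in control. Untreated WT and Het cells had 74.1 and 67.9 CPM and the KO embryos had 89.1, 71.2 and 58.1 CPM, while treated WT and Het cells had 53.9 and 47.2 CPM and the KO embryos had 42.4 and 47.5 CPM. On the TMM scale, every doxorubicin library was below every control library. By library totals the groups overlapped, since treated Het held 975 of 15560728 counts and untreated WT 1487 of 24122414. The log2 fold change of Dusp6, -0.60 (SE 0.160), was just outside the threshold (edgeR FDR 0.0115), and it was negative in 4 of 4 embryos, between -1.07 and -0.46. Dusp6 passed with the embryo as a block, at -0.66 (edgeR FDR 0.00186), when the identical library was taken as KO embryo 2, but not at -0.58 (edgeR FDR 0.0244) when it was taken as KO embryo 3. It also passed with DESeq2, at -0.54 (FDR 0.00673), and without KO embryo 3 in control, at -0.66 (edgeR FDR 0.000803). The last fit is not separate from the block with the identical library as KO embryo 2. In that block, the control library of KO embryo 3 has no partner and adds nothing to the treatment effect.

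Dusp7, a close relative of Dusp6, had 27.4 and 10.4 CPM in untreated WT and Het cells and 25.2, 29.5 and 13.2 CPM in the KO embryos. With doxorubicin it had 20.6 and 18.2 CPM in WT and Het and 22.5 and 22.3 CPM in the KO embryos. All treated libraries thus lay inside the range of the untreated ones. The log2 fold change was 0.08 (SE 0.273, edgeR FDR 0.824), and the embryos did not share a direction, since the difference was 0.80 in Het and between -0.41 and -0.16 in the other embryos. Its sign turned to -0.33 without the Het embryo and KO embryo 3, and to -0.05 with the embryo as a block and the identical library as KO embryo 2. With that library as KO embryo 3, the value was 0.24, and that embryo had 13.2 CPM in control and 22.3 CPM with doxorubicin.

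Among the enzymes that prefer JNK and p38, Dusp8, known from heart and brain, was the third member that rose. Untreated WT and Het cells had 15.6 and 13.8 CPM and the KO embryos had 12.0, 14.6 and 11.9 CPM. Treated WT and Het cells had 37.3 and 40.6 CPM and the KO embryos had 37.6 and 40.3 CPM. The doxorubicin libraries all lay above the control libraries and close to each other, at 38.9 ± 1.76 CPM (SD, n = 4) against 13.6 ± 1.64 CPM (SD, n = 5). The closeness rests on the TMM scaling, since treated Het held 839 of 15560728 counts and treated WT 749 of 21350978. On the log2 scale Dusp8 rose by 1.51 (SE 0.145, edgeR FDR 6.74e-05), higher in 4 of 4 embryos by 1.25 to 1.64. In GENCODE, an exon of Dusp8 overlaps Gm32786, a noncoding RNA on the opposite strand. Exons of Dusp1 and Dusp5 likewise overlap Ergic1 and an antisense RNA. The paper counted on a gene file from iGenomes and not on GENCODE. In RefSeq, Dusp1 spans 2.88 kb, against 56.5 kb in GENCODE, so its overlap with Ergic1 may not apply to the counts. The strand setting of the counting is not stated. Reads of these pairs, where they overlap in the gene file used, may thus not have been told apart.

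Dusp10, also known as MKP-5, had 10.4, 6.80, 12.8, 14.0 and 7.13 CPM in control and 10.5, 12.0, 10.9 and 12.0 CPM with doxorubicin, with WT and Het first. As for Dusp7, the treated libraries lay inside the range of the untreated ones, and the log2 fold change was 0.20 (SE 0.254, edgeR FDR 0.538). The difference was 0.81 in Het and between -0.24 and 0.01 in the other embryos, and without the Het embryo and KO embryo 3 the value was -0.15. With the identical library as KO embryo 3, that embryo had 7.13 CPM in control and 12.0 CPM with doxorubicin. Dusp16, also known as MKP-7, had 34.7, 29.9, 33.1, 33.2 and 24.5 CPM in control and 31.2, 17.9, 29.4 and 28.1 CPM with doxorubicin. The treated Het library was the lowest of all 9, and the log2 fold change was -0.24 (SE 0.173, edgeR FDR 0.266), negative in 4 of 4 embryos.

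Counted by role, 1 of the 4 nuclear enzymes, 1 of the 3 ERK enzymes and 1 of the 3 JNK and p38 enzymes rose. Separation of the groups gave a similar picture. On the TMM scale, in 3 members every doxorubicin library was above every control library, as in 24.8% of all genes tested. In 1 member, Dusp6, every one was below, as in 21.6%, although not by library totals without TMM. The number of members that passed moved with that of all genes, of which 40.5% passed in either direction. With the embryo as a block, 5 members passed (3 higher, and Dusp1 and Dusp6 lower) when the identical library was taken as KO embryo 2, where 57.2% of all genes passed, and 3 when it was taken as KO embryo 3, where 39.6% passed. Without the Het embryo and KO embryo 3, 6 members passed, with Dusp1 at -0.85 (edgeR FDR 5e-05), Dusp5 and Dusp6 lower, against 67.2% of all genes. Without KO embryo 3 in control, 5 members passed, against 59% of all genes. This fit is nearly the same test as the block with the identical library as KO embryo 2. In that block, the control library of KO embryo 3 has no partner.

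**Figure D2:**
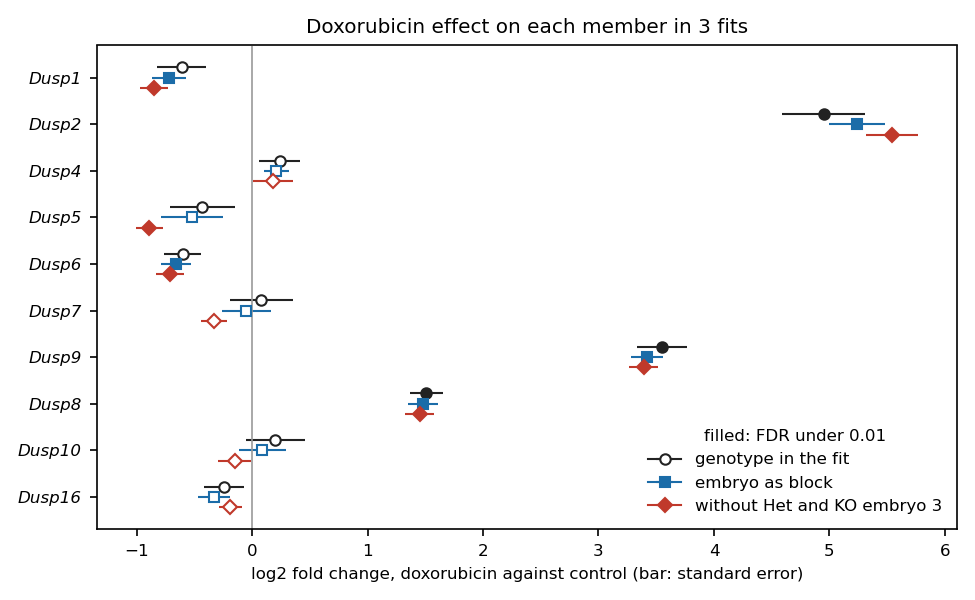
The log2 fold change of each member in doxorubicin against control is plotted with its standard error in 3 fits, with filled symbols at an FDR under 0.01 and the identical library taken as KO embryo 2 in the block. Dusp2, Dusp9 and Dusp8 are filled in all 3 fits, Dusp6 and Dusp1 in the fits with the block and without the Het embryo and KO embryo 3, and Dusp5 only in the latter.

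Levels of different genes can be set side by side only per length, and for this RPKM, the CPM divided by the exon length in kilobases, were computed. In control, Dusp6 had the highest mean level, at 23.0 ± 3.60 RPKM (SD, n = 5), followed by Dusp4 at 14.3, Dusp1 at 13.7 and Dusp5 at 10.0 RPKM. Dusp7 (6.30), Dusp9 (4.45), Dusp16 (3.99), Dusp10 (3.36) and Dusp8 (2.79 RPKM) came next, and Dusp2 was last at 0.344 ± 0.226 RPKM (SD, n = 5). The ranges of neighbours in this order overlapped, except that Dusp2 lay below Dusp8 in all libraries. With doxorubicin the order changed. Dusp9 came first at 51.0 ± 13.2 RPKM (SD, n = 4), above every other member in each library, followed by Dusp4 at 17.3, Dusp6 at 15.2 and Dusp2 at 11.0 ± 4.58 RPKM (SD, n = 4). Dusp1 (8.83), Dusp8 (8.0), Dusp5 (7.73) and Dusp7 (6.23 RPKM) followed, with Dusp10 (3.73) and Dusp16 (3.42 RPKM) last. Neighbours in this order overlapped in range as well, except Dusp9 with Dusp4, Dusp1 with Dusp8, and Dusp7 with Dusp10.

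The summed level of the 10 genes was 82.3 ± 14.8 RPKM (SD, n = 5), between 61.6 and 100, in control and 132 ± 4.05 RPKM (SD, n = 4), between 127 and 136, with doxorubicin. The ranges did not overlap. The small spread with doxorubicin rests on the TMM scaling, whose factors there ran from 0.9205 (KO embryo 1) to 1.3271 (Het). Dusp9 took 3.86% to 7.05% of the sum in control and 25.3% to 45.4% with doxorubicin, while Dusp6 took 26.2% to 30.1% in control and 10.1% to 12.9% with doxorubicin. Dusp2 took at most 0.884% in control and 5.55% to 14.0% with doxorubicin, with the highest share in Het. Dusp9 and Dusp2, which ranked 6 and 10 by level in control, thus ranked 1 and 4 with doxorubicin. By the longest transcript in place of the union of exons, Dusp9 ranked 7 in control.

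**Figure D3:**
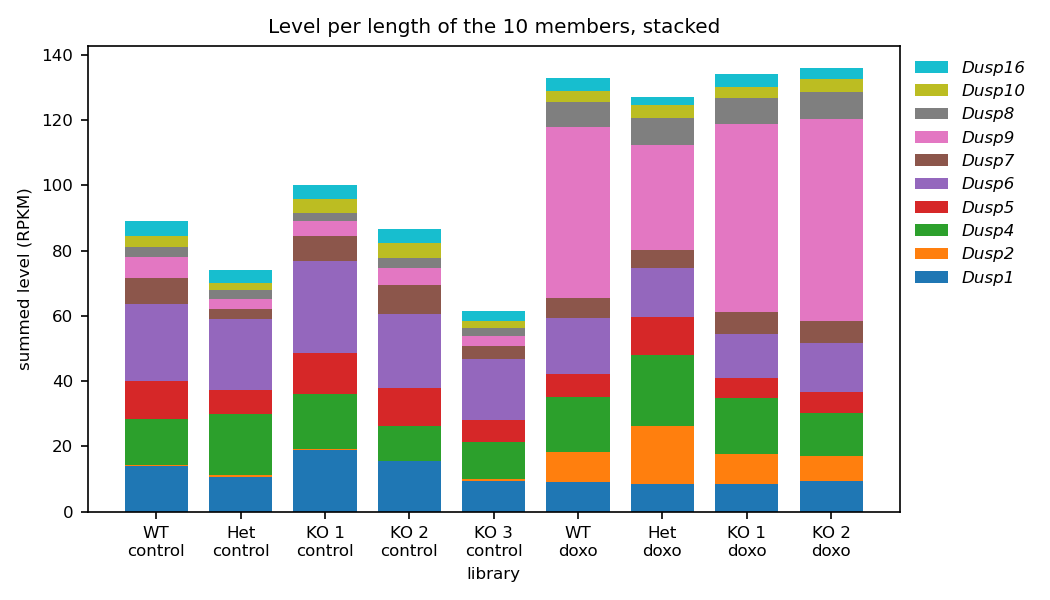
Bars stack the RPKM of the 10 members in each of the 9 libraries, with each colour a member. The doxorubicin (doxo) bars reach 127 to 136 RPKM against 61.6 to 100 RPKM in control, and Dusp9 takes the largest part of each doxorubicin bar.

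The second question was whether the phosphatases depended on Sall2. Between KO and WT, with treatment in the fit, 0 of the 10 members passed an FDR under 0.01, as did 0% of all genes by edgeR. Of all genes, 110 had an unadjusted p under 0.05 and 3 passed with DESeq2, none of them a member. The members' log2 fold changes lay between -0.20 (Dusp9, standard error 0.251) and 0.18 (Dusp2, standard error 0.423), and none had an unadjusted p under 0.05. With 1 WT embryo, differences of this size could not be told from the spread between embryos. The control and doxorubicin libraries of an embryo count as separate libraries in the genotype fits. The standard errors thus hold no spread between WT embryos.

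Between Het and WT, 0 members and 0% of all genes passed by edgeR, with 3866 genes at an unadjusted p under 0.05 and 176 that passed with DESeq2. Dusp2 had a log2 fold change of 1.26 (SE 0.489, edgeR FDR 0.202) and Dusp9 of -0.94 (SE 0.306, edgeR FDR 0.202), the 2 members with an unadjusted p under 0.05. Without KO embryo 3 in control both passed, Dusp2 at 1.22 (edgeR FDR 0.00913) and Dusp9 at -0.92 (edgeR FDR 0.00365), as did 19.8% of all genes. Het and WT are 1 embryo each, whose control and doxorubicin libraries count separately. These FDR values thus hold no spread between Het or between WT embryos and cannot show an effect of genotype. The Het embryo was the one with high sums of interferon-stimulated and macrophage markers in both treatments, and with 1 Het embryo the genotype and the state of the culture cannot be told apart. Scaling by library totals without TMM moved the median of all genes in this comparison by 0.54 on the log2 scale, and put Dusp2 at 1.79 and Dusp9 at -0.39.

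Within the control group, the Het and KO embryo 3 libraries lay together for many members. In 7 of the 10, all but Dusp2, Dusp4 and Dusp8, both had fewer CPM than each of the other 3 libraries, and in Dusp2 both had more. Without TMM these counts were 3 and 4, so this pattern rests on the scaling. Dusp7 showed it most plainly, at 10.4 and 13.2 CPM against 25.2 to 29.5 CPM. The interferon, macrophage and fibroblast sums given above moved with it, and their part in the result was not tested.

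The third question was whether the response to doxorubicin differed between KO and WT. In the interaction of genotype and treatment, 0 members and 0% of all genes passed by edgeR, 53 genes had an unadjusted p under 0.05 and 0 passed with DESeq2. The members' differences of log2 fold changes, KO minus WT, lay between -0.93 (Dusp2, standard error 0.992) and 0.72 (Dusp9, standard error 0.533). The standard errors were large, since the WT response rests on 2 libraries.

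Other genes around these phosphatases were taken from 6 lists: the MAP kinases themselves, the kinases upstream, the Sprouty and Spred inhibitors, other genes that respond to ERK, the atypical dual-specificity phosphatases and the remaining phosphatases of MAP kinases. In these lists 29 of the 58 genes tested passed in doxorubicin against control, 12 higher and 17 lower, against the same 21.8% and 18.7% of all genes. The number was 18 when the WT control library, the WT doxorubicin library or either of the KO doxorubicin libraries was left out, where 25.5% to 27.1% of all genes passed.

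Of the 13 MAP kinases, 1 rose and 4 fell, with a list median of -0.59 against 0.02 over all genes. Mapk9, which encodes JNK2, rose by 0.90 on the log2 scale (edgeR FDR 0.00104), whereas Mapk8, which encodes JNK1, had a log2 fold change of -1.99 (edgeR FDR 0.000191). Mapk8 had 30.1 and 39.7 CPM in untreated WT and Het cells and 26.2, 30.6 and 51.5 CPM in the KO embryos, and 9.20 and 9.83 CPM in treated WT and Het cells and 7.46 and 9.28 CPM in the KO embryos. These are substrates of Dusp8, Dusp10 and Dusp16. Mapk6, which encodes the atypical kinase ERK3, fell by 0.82 on the log2 scale (edgeR FDR 0.00565), while Mapk3, which encodes ERK1, was at 0.18 (edgeR FDR 0.395). Of the 7 MAP kinase kinases, 3 fell and none rose, with a median of -0.39. On the log2 scale, Map2k6, an activator of p38, fell by 2.59 (edgeR FDR 0.000898), Map2k7, an activator of JNK, fell by 1.89 (edgeR FDR 0.00028), and Map2k5, the activator of ERK5, fell by 1.15 (edgeR FDR 0.000352).

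Of the 7 Sprouty and Spred genes, which encode inhibitors of the path from receptors to ERK, 5 fell and 1 rose, with a list median of -1.25. Spred3 fell by 2.23 on the log2 scale (edgeR FDR 0.000625), Spry3 by 1.99 (edgeR FDR 0.00121), Spred1 by 1.56 (edgeR FDR 0.000392) and Spry1 by 1.25 (edgeR FDR 0.00276). Spred1 had 141, 71.2, 143, 142 and 75.8 CPM in control and 44.4, 25.6, 38.5 and 43.9 CPM with doxorubicin, and these groups did not overlap. Spry4 was the gene that rose, by 0.69 (edgeR FDR 0.00957). Of the 10 other ERK-responsive genes, 1 rose, Epha2 at 1.43 (edgeR FDR 0.00807), and 1 fell, Ier3 at -1.65 (edgeR FDR 0.000714), with a list median of 0.21.

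The 17 atypical dual-specificity phosphatases are mostly small proteins that lack the kinase-binding domain of the 10 members. Of these genes, 15 were tested, 5 rose and 4 fell, with a median of -0.05. Styxl1 rose by 4.01, Dusp13 by 3.70 and Dusp28 by 3.27 on the log2 scale, and Dusp27 fell by 3.45 (edgeR FDR 0.000618, 0.00108, 2.03e-05 and 6.13e-05). Of the 6 remaining phosphatases of MAP kinases, 4 rose and none fell, with a median of 1.73. They were Ptprr at 3.68, Ptpn5 at 2.02 and Ptpn7 at 1.68, which encode tyrosine phosphatases of ERK and p38, and Ppm1d at 1.78, which encodes the p53-induced phosphatase Wip1 (edgeR FDR 0.00249, 0.00359, 0.00366 and 8.74e-05). Ptprr and Ptpn5 stayed at no more than 1.40 and 1.36 CPM in any library. Styxl1 and Dusp13 were also low, with means of 0.248 and 0.314 CPM in control and 3.80 and 3.88 CPM with doxorubicin.

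**Figure D4:**
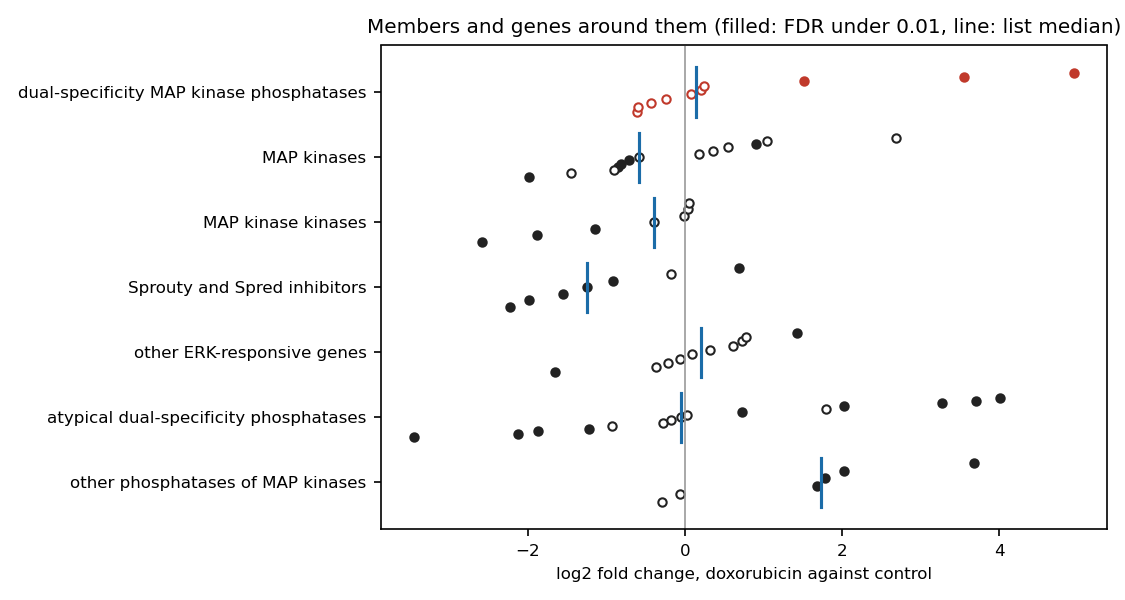
Points give the log2 fold change in doxorubicin against control of the 10 members (red) and of the genes of 6 lists (black), filled at an FDR under 0.01, with a blue line at each list's median. The median lies at 0.14 for the members, at -1.25 for the Sprouty and Spred inhibitors and at 1.73 for the other phosphatases of MAP kinases.

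The genes whose log2 CPM was most like that of Dusp9 over the 9 libraries were Lynx1, Crat and Hcn2, with Pearson correlations of 0.999, 0.9984 and 0.9982. For Dusp2 they were Slc10a1, Tdrd6 and Efr3b, at 0.9971, 0.9968 and 0.9967. These correlations are descriptions over libraries that share the difference between treatments. Among the members themselves, the correlation was 0.97 for Dusp8 with Dusp9 and 0.92 for Dusp1 with Dusp6 over the 9 libraries, and 0.61 and 0.93 over the 5 control libraries.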

How the data were processed

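RNA was depleted of rRNA and sequenced from stranded libraries. Reads were pooled over the 4 runs of a sample, aligned by HISAT2 (version 2.1.0 in the submitters' processing notes) to mm10 and assigned to genes by HTSeq in union mode. The authors deposited whole-number counts without normalization. The strand setting is not given in the sources used here.

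From these counts, CPM with TMM factors were computed in edgeR 4.0.16 (R 4.3.3), and log2 CPM with a prior count of 2. Genes were filtered with filterByExpr over genotype and treatment, and tested with glmQLFit and glmQLFTest (robust) at an FDR under 0.01, in a fit of treatment and genotype over 9 libraries. The interaction was fitted with their products. The scripts were tested on simulated data. RPKM used the union of GENCODE exons. Alternatives included DESeq2 1.42.0, other filters, RUVg with 1 factor, an embryo block, left-out libraries and, chosen after the data were seen, library totals without TMM.

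The embryo numbers in the labels pair the libraries. With the identical library as KO embryo 2, the differences between KO embryos 1 and 2 were weakly correlated between control and doxorubicin. The Pearson r was 0.342 over 16656 genes, which are not independent. The pairing with that library as KO embryo 3 was not tested in this way. The members and lists were chosen with earlier results of these data known. The genes named are the 10 members, up to 4 genes per list past the threshold by size of change, Sall2, Cdkn1a and Mdm2, and the 3 genes most correlated with the 2 members of smallest FDR. A gene that the rule names is not reported here. Mapk3 and Spry4 were named beyond this rule after their values were seen. Adgre1 is listed in the table under its older symbol Emr1. The p-values measure the spread between these libraries only, and reads were counted without molecular identifiers.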

Additional observations from a re-analysis of the deposited data

How the results depend on the processing

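Dusp2, Dusp8 and Dusp9 passed the threshold in doxorubicin against control in all 22 alternatives run. The number of members that passed was 5 with the replicate block and the identical library as KO embryo 2 (57.2% of all genes passed), 6 without the Het embryo and KO embryo 3 (67.2%), 5 at an FDR of 0.05 (55.5%), and between 3 and 5 with each library left out (25.5% to 59%), against 3 members and 40.5% of all genes as reported. It was 4 with DESeq2 (49.4%), RUVg (60.5%), no genotype term (38.1%) or the identical libraries counted as 2 (48.9%), where Dusp6 was added. With each library left out, the pathway lists gave 18 to 37 genes and Het against WT gave 0 to 2 members, against 0 in KO against WT and in the interaction under every alternative run. A replicate block could not be fitted for KO or Het against WT, because each embryo has a single genotype, nor Het against WT without the Het embryo, nor the interaction without a WT library.

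Where a sign changed, no value had passed. In doxorubicin against control, Dusp7 was at -0.05 with the replicate block and the identical library as KO embryo 2 (0.24 with it as KO embryo 3), -0.33 without the Het embryo and KO embryo 3 and -0.02 without a genotype term, and Dusp10 at -0.15 without these embryos. In KO against WT, Dusp7 was at 0.00 with RUVg, Dusp2 and Dusp7 at -0.12 and 0.06 without these embryos, and at -0.18 and 0.03 as a slope. In Het against WT, Dusp8 was at 0.01 with DESeq2; RUVg put Dusp1, Dusp6, Dusp7, Dusp8 and Dusp10 at 0.47, 0.12, 0.48, 0.24 and 0.78, and library totals put Dusp1, Dusp6, Dusp8, Dusp10 and Dusp16 at 0.29, 0.38, 0.51, 0.36 and 0.05. In the interaction, Dusp10 was at -0.02 with DESeq2, Dusp10 and Dusp16 at -0.24 and -0.05 with the replicate block and the identical library as KO embryo 2, -0.26 and -0.08 without these embryos, and -0.08 and -0.05 with library totals. Dusp1 and Dusp5 were at 0.06 and 0.14 with the block and that library as KO embryo 3, and at 0.07 and 0.11 with RUVg. The cause was not tested.

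With each library left out, values that changed sign ranged from -0.13 to 0.23 for Dusp7 in doxorubicin against control. In KO against WT they ranged from -0.10 to 0.14 (Dusp1), -0.15 to 0.79 (Dusp2), -0.31 to 0.07 (Dusp5), -0.37 to 0.27 (Dusp7), -0.28 to 0.06 (Dusp8) and -0.49 to 0.14 (Dusp9). In Het against WT they ranged from -0.62 to 0.74 (Dusp5), -0.20 to 0.14 (Dusp8) and -0.61 to 0.19 (Dusp10). In the interaction they ranged from -0.31 to 0.16 (Dusp1), -0.24 to 0.19 (Dusp4), -0.25 to 0.14 (Dusp5), -0.24 to 0.18 (Dusp10) and -0.05 to 0.15 (Dusp16). By the longest transcript in place of the union of exons, the summed level in control was 93.8 RPKM, against 82.3 ± 14.8 RPKM (SD, n = 5). Some ranks moved with this choice. In control, Dusp1 at 19.6 RPKM came above Dusp4 at 14.3 RPKM, and Dusp16 at 6.09 RPKM came above Dusp9 at 4.45 RPKM. With doxorubicin, Dusp16 at 5.22 RPKM came above Dusp10 at 4.07 RPKM. At the library sizes scaled by TMM, 3 counts correspond to 0.123 to 0.168 CPM.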
